A study of Mus musculus with 7 samples.

Results

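The semaphorins, plexins and neuropilins of the mouse neocortex were compared between CKO and wild type (WT) samples. The family was taken as 31 genes by name, 20 semaphorins, 9 plexins and 2 neuropilins, out of 19936 genes that have a probe set of their own on the array. Each gene was read from the probe sets annotated to it alone, the brightest over the 7 arrays where there were several. All 31 members passed the filter on dim signals and were tested among 16144 genes, so none is called dim. Sema3d, with a mean of 7.05 in CKO and 7.03 in WT, lay nearest to the filter at a log2 signal of 6.84.

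Total RNA of whole neocortex from C57BL/6 mice was hybridised to 1 array per sample. The 4 CKO samples carry a genotype given as COUP-TFI with Nex-Cre, and the 3 WT samples are given as wild type. COUP-TFI is the product of Nr2f1, a nuclear receptor without a settled ligand that sets up cortical areas. Nex-Cre acts from the Neurod6 locus in postmitotic glutamatergic neurons, so other cells of the tissue are not its targets. The sources used here give neither the age of the mice nor whether WT samples carry Cre. Nor do they tie each array to its own animal, so p-values reflect spread between samples that can be partly technical. Values are log2 signals, and differences are CKO minus WT.

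Semaphorins are guidance ligands for growing axons and migrating neurons. Class 3 semaphorins are secreted, classes 4 to 6 span the membrane and Sema7a is held there by a lipid anchor. Most class 3 ligands bind a neuropilin, whose short inner tail holds no enzyme, so that the signal passes through a plexin A, while the membrane-bound classes bind plexins directly. In the developing cortex the system steers callosal and corticofugal axons, radial migration and the entry of interneurons.

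The arrays carried facts that touch these genes. Nr2f1 itself was lower in CKO by -0.36 (SE 0.0738, limma adjusted p 0.435) without overlap between the groups. Neurod6, from whose locus Nex-Cre acts, was also lower, by -0.20 (SE 0.0567, limma adjusted p 0.711), without overlap. Whether the driver locus bears on the results below was not tested. Array lots, read from identifiers that the labels give for each array, held CKO 1 and CKO 4 (lot 1), CKO 34, CKO 43, WT 27 and WT 38 (lot 2) and WT 6 (lot 3), so that lot 2 alone held both groups. The labels do not call these groupings lots, and nothing in them tells if the arrays of a lot were handled together. CKO 43 was the 1 array with high Xist (13.08, against 6.22 to 6.39 on the others) and low Y-linked Uty (5.44, against 9.68 to 9.87 on the others). Of 10 cortical glutamatergic neuron markers, the 8 that could be read all passed the filter. Markers of other cells were also read. The mean deviation of 10 striatal markers from their 7-array means lay between -0.042 and 0.339 on CKO arrays and between -0.32 and -0.124 on WT arrays, with all 10 higher in CKO. Of 13 dividing cell markers 13 were higher (CKO 0.0256 to 0.0982, WT -0.171 to -0.01), as were 6 of 6 meningeal markers (CKO 0.015 to 0.19, WT -0.141 to -0.0996). Of 9 radial glia markers 9 were higher (CKO -0.0321 to 0.122, WT -0.157 to -0.0173), but their array means overlapped, with CKO 34 below WT 6 and WT 27. Of all genes tested 58.9% were higher. The array means of the groups overlapped for 11 interneuron markers, 7 of them higher (CKO -0.207 to 0.18, WT -0.108 to 0.0089). They also overlapped for the glutamatergic neuron, Cajal-Retzius, oligodendrocyte lineage, microglial, endothelial and mural, thalamic and red blood cell lists. Of these, 4 of 8, 3 of 6, 7 of 8, 5 of 8, 8 of 10, 4 of 6 and 3 of 3 members were higher, in that order. Some single markers in these lists did not overlap between the groups. Among interneuron markers 1 was higher and 2 lower without overlap (27.3%), and among glutamatergic neuron markers 2 and 1 (37.5%). The endothelial and mural and the thalamic lists each held 1, higher, and 8.38% of all genes did not overlap. Fits with striatal and interneuron signal as covariates, chosen after seeing the data, are given at the end. Apart from these fits, the part of the listed cell types in the results below was not tested. In bulk tissue fewer cells of a type and less RNA per cell cannot be told apart.

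No member of the family passed the adjustment over all genes with limma. The smallest adjusted p was 0.715, where 0.0248% of all genes tested passed 0.05. At an unadjusted limma p under 0.05 there were 3 members, Nrp2 and Nrp1 lower and Sema7a higher in CKO. They make 9.68% of the family, against 6.79% of all genes tested, of which 4.17% were higher and 2.61% lower, and thus lie near the background. The groups did not overlap for 3 members, Nrp2 and Sema4c lower and Sema5b higher, likewise 9.68% against 8.38% of all genes. The 95% interval of the difference held 0 for 28 of 31 members.

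Both neuropilins, the receptors of the secreted ligands, had lower means in CKO, and Nrp2 had the largest difference of the family. Neuropilin 2 (Nrp2, probe set 10346843), the binding receptor of Sema3f, had log2 signals of 10.69, 10.19, 10.20 and 10.59 on CKO 1, CKO 4, CKO 34 and CKO 43, against 10.71, 10.75 and 10.92 on WT 6, WT 27 and WT 38. CKO 4 and CKO 34 lay far below the WT arrays, CKO 43 lay between them and the WT arrays, and CKO 1 came within 0.027 of WT 6. The mean was 10.42 ± 0.259 in CKO (SD, n = 4) and 10.79 ± 0.109 in WT (SD, n = 3). The difference was -0.37 (SE 0.130, 95% interval -0.67 to -0.077), or 77.1% of the WT signal, with an unadjusted limma p of 0.0198 and an adjusted p of 0.715. The 7 values of Nrp2 spanned 0.724, the widest range in the family. Within lot 2 the difference was -0.44, and with lot as a fixed block the same difference had an unadjusted limma p of 0.0762. With any 1 array left out it ran from -0.46 to -0.30, and the unadjusted limma p stayed under 0.05 in 6 of 7 such fits, the exception being without WT 38. Nrp2 is also carried by migrating interneurons. The mean deviation of the interneuron markers was -0.207 to 0.18 on CKO arrays, lowest on CKO 4, and -0.108 to 0.0089 on WT arrays. This mean joins markers that moved in opposite directions, 7 higher and 4 lower in CKO. Npy (-0.51) and Htr3a (-0.60) were lower and Slc32a1 (0.12) higher without overlap. Dlx2 (0.51) and Dlx5 (0.39) were higher with overlap. Apart from the covariate fits given at the end, the part of interneurons in the difference of Nrp2 was not tested.

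Neuropilin 1 (Nrp1, probe set 10576639), the binding receptor of Sema3a and also of VEGF, had log2 signals of 11.73, 11.60, 11.74 and 11.77 on CKO 1, CKO 4, CKO 34 and CKO 43, against 11.74, 11.90 and 11.91 on WT 6, WT 27 and WT 38. The groups overlapped, since WT 6 lay below CKO 34 and CKO 43. The difference was -0.14 (SE 0.0594, 95% interval -0.28 to -0.0039), or 90.8% of the WT signal, with an unadjusted limma p of 0.0451 and an adjusted p of 0.726. Within lot 2 it was -0.15. With 1 array left out it ran from -0.20 to -0.10, and the unadjusted limma p was under 0.05 in 2 of 7 such fits. Endothelial cells carry Nrp1 as well. Of 10 endothelial and mural markers 8 were higher in CKO, where 58.9% of all genes were, with an overlapping mean deviation of -0.0162 to 0.0953 on CKO arrays and -0.0701 to 0.0106 on WT arrays, and their part in the difference of Nrp1 was not tested. CKO 4 was the lowest array for both neuropilins and WT 38 the highest.

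The promoters of the 3 members at an unadjusted p under 0.05 are shown because the targeted gene encodes a factor that binds direct repeats of the letters AGGTCA. Windows of 250 bases before to 50 bases after the gene start were taken from RefSeq on GRCm38.p6, which may differ from the build of the array annotation. All 3 genes lie on the plus strand. Capitals mark AGGTCA or its reverse complement TGACCT.
Nrp2, chr1:62703067-62703366: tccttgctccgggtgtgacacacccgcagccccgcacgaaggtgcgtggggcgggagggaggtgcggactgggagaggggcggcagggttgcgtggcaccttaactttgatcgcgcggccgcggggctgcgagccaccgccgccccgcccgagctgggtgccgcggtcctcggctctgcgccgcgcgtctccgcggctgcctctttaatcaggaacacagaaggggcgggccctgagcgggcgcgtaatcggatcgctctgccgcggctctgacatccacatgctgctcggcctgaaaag
Nrp1, chr8:128358823-128359122: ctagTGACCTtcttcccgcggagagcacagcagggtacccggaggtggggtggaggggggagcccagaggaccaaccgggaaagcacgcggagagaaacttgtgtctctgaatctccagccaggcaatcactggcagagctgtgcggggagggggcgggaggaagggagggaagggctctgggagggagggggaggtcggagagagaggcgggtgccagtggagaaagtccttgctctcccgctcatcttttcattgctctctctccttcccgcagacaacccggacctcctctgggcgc
Sema7a, chr9:57939862-57940161: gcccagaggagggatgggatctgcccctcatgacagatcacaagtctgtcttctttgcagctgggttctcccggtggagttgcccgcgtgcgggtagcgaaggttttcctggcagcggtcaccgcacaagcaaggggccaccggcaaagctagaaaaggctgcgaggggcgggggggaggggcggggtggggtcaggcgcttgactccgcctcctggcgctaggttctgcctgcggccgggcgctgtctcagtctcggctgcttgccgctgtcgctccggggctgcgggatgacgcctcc
The window of Nrp1 held the 6 letters once, on the minus strand at its far upstream end, and those of Nrp2 and Sema7a did not hold them. Of 31 members 26 had windows, 37 in all, and 7 of these windows (18.9%) held AGGTCA on either strand, each in a different gene: Nrp1, Plxnb2, Plxnd1, Sema4b, Sema4d, Sema5a and Sema6b. Among 32851 windows of all genes the share was 16.3%. The longer AAAGGTCA, which contains the shorter motif, stood in 0 member windows and in 1.51% of all windows, and the direct repeat AGGTCANAGGTCA in 0 member windows and 0.0396% of all. The windows of Nrp2, Nrp1 and Sema7a were rich in G and C, at 70.7%, 64.0% and 67.3%, against medians of 63.7% over member windows and 52.7% over all windows.

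**Figure D1:**
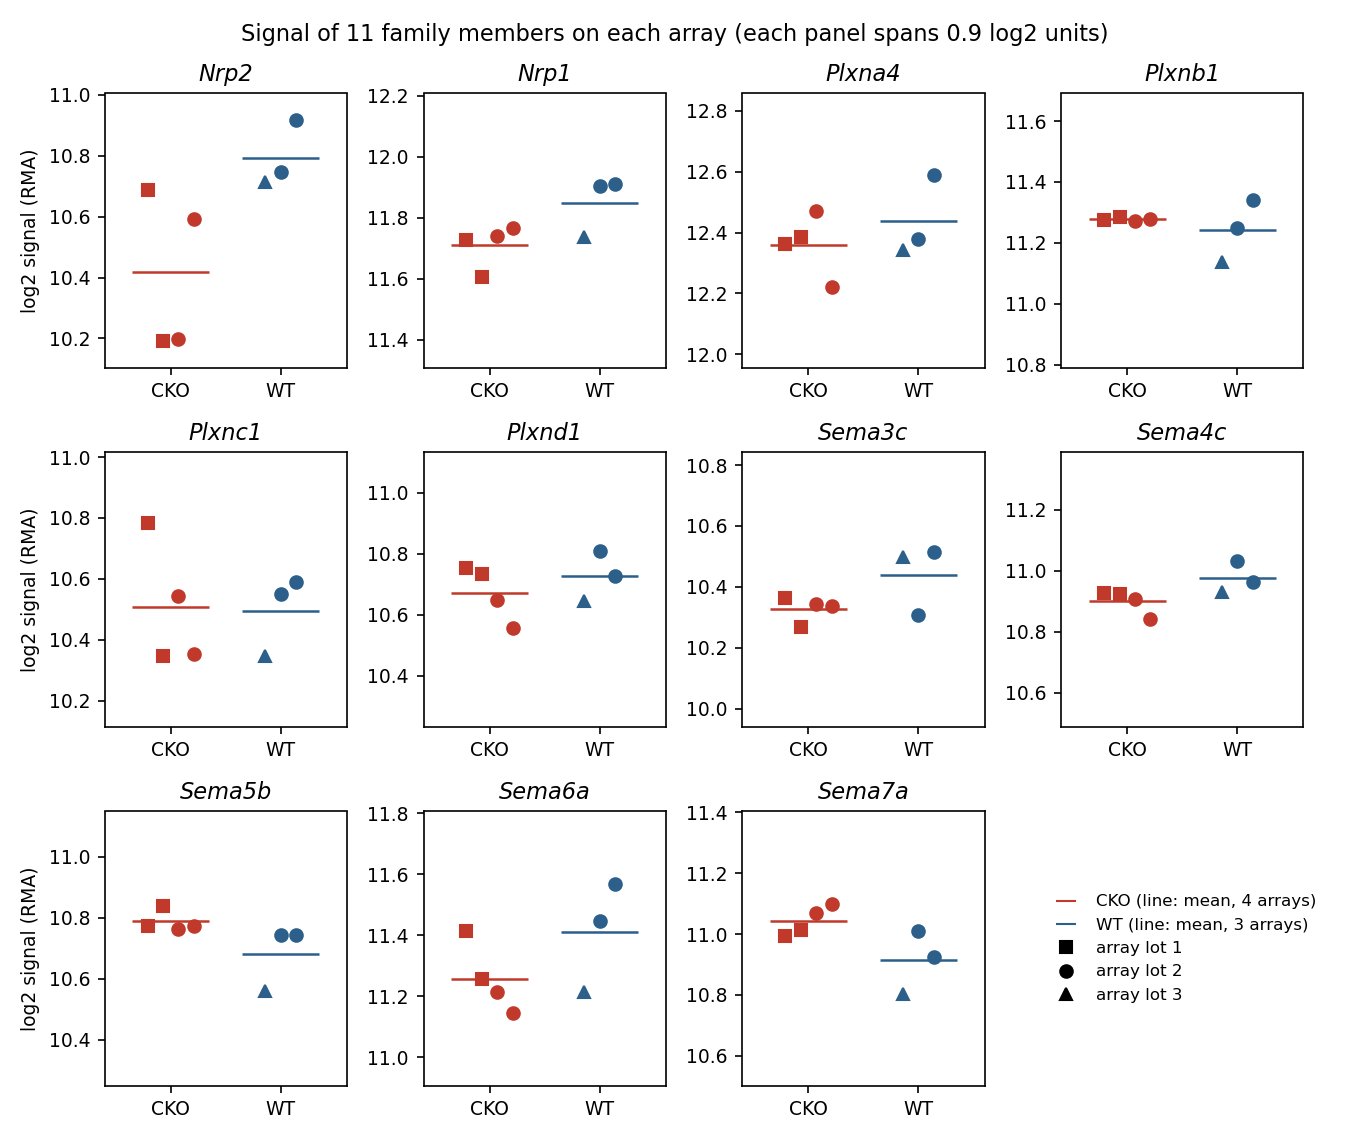
RMA log2 signal of 11 members on each array, CKO (4 arrays, red) left of WT (3 arrays, blue), with lines at the group means and symbols for array lots; every panel spans 0.9 log2 units. Nrp2 shows the widest spread, with CKO 4 and CKO 34 at 10.19 and 10.20 and the WT arrays from 10.71 to 10.92, while the plexins overlap between groups.

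Plexins, the signalling receptors, lay close to 0 over all 7 arrays. The 9 differences ran from -0.077 to 0.034, with a median of 0.0051, and 5 of 9 were positive. Within lot 2 all 9 were negative, with a median of -0.069, so that those 5 changed sign. Of the 9, Plxna1, Plxna3, Plxnc1 and Plxnd1 did not overlap between the groups of lot 2, where 17.3% of all genes were lower without overlap. All 9 intervals held 0, and their outermost bounds were -0.25 for Plxna4 and 0.27 for Plxnc1, so that differences beyond these were outside every interval. In plexin A, the partners of neuropilins and of class 6 semaphorins, Plxna1 (0.0051), Plxna2 (-0.0090) and Plxna3 (0.0073) differed least. Plxna4, which pairs with neuropilins and Sema6a, had 12.36, 12.39, 12.47 and 12.22 on CKO 1, CKO 4, CKO 34 and CKO 43, against 12.34, 12.38 and 12.59 on WT 6, WT 27 and WT 38. Its groups overlapped, with WT 38 alone above all CKO arrays, and the difference was -0.077 (SE 0.0764, limma adjusted p 0.826). Plxna3 and Plxnb3 are X-linked, and on CKO 43, the array with high Xist, they stood at 11.92 and 7.54, inside the ranges of the other CKO arrays (11.85 to 11.93 and 7.46 to 7.56).

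Plexin B, the receptors of class 4 semaphorins, gave 0.034 for Plxnb1, 0.023 for Plxnb2 and -0.013 for Plxnb3. Plxnb1, the receptor of Sema4d, had 11.28, 11.28, 11.27 and 11.28 on CKO 1, CKO 4, CKO 34 and CKO 43, against 11.14, 11.25 and 11.34 on WT 6, WT 27 and WT 38. The CKO arrays were nearly equal (SD 0.00582, n = 4) and lay inside the WT range (limma adjusted p 0.88). Plxnc1, the receptor of Sema7a, had 10.78, 10.35, 10.54 and 10.35 on the CKO arrays in the same order, against 10.35, 10.55 and 10.59 on the WT arrays. CKO 1 stood alone at the top, the groups overlapped, and the difference was 0.011 (SE 0.112, limma adjusted p 0.986). Plxnd1, which binds Sema3e without a neuropilin and is strong in vessels and striatum, had 10.75, 10.73, 10.65 and 10.56 on the CKO arrays, against 10.64, 10.81 and 10.73 on the WT arrays. The groups overlapped, with a difference of -0.054 (SE 0.0608, limma adjusted p 0.837). Within lot 2 it was -0.17.

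**Figure D2:**
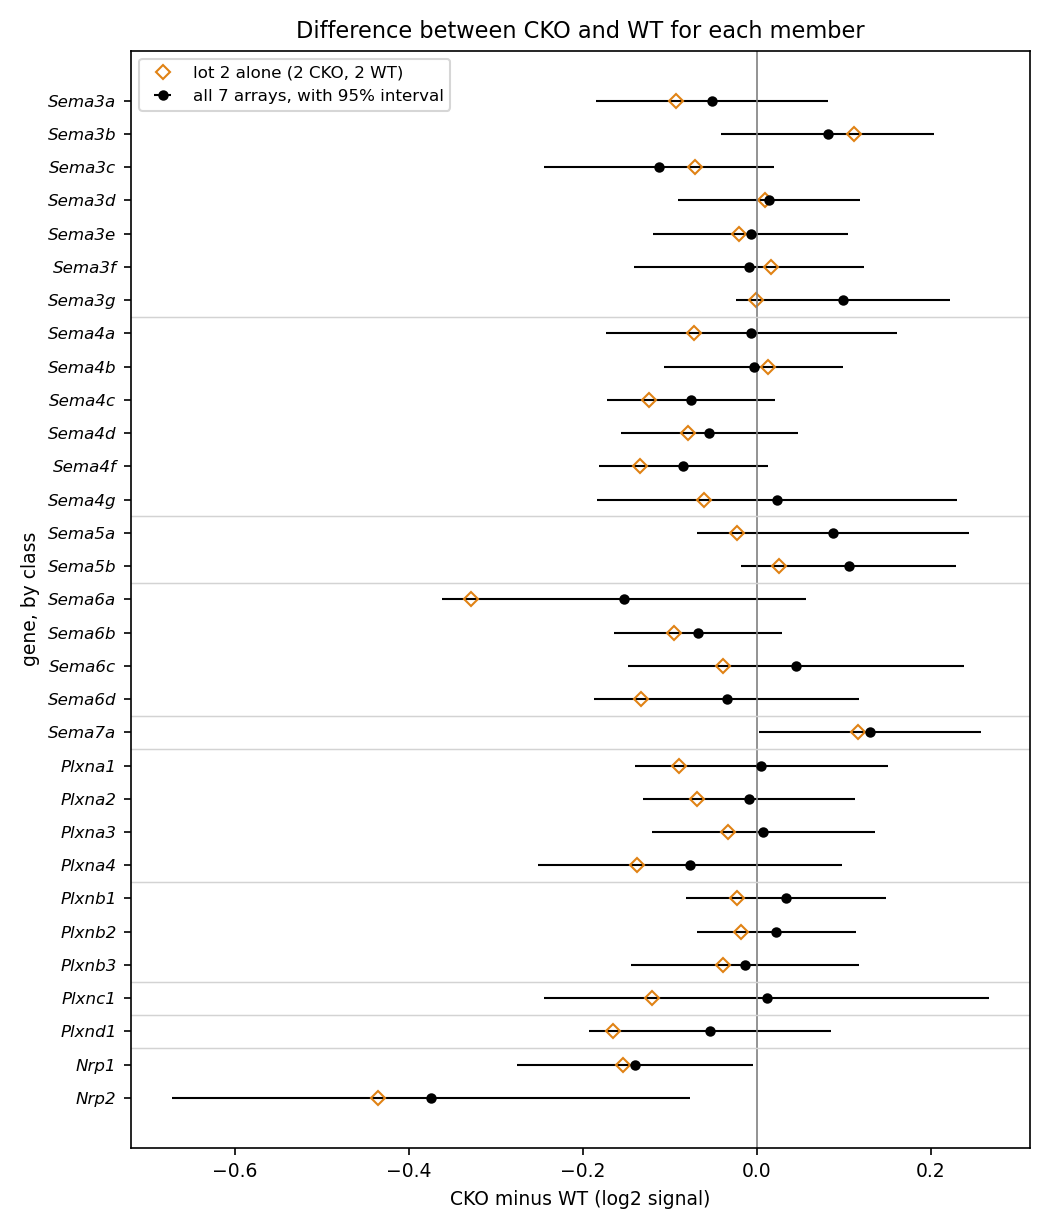
CKO minus WT difference in log2 signal for each of the 31 members, by class, over all 7 arrays (black, with 95% intervals) and over the 4 arrays of lot 2 (orange, no interval). The intervals of Nrp2, Nrp1 and Sema7a leave out 0, and 25 of 31 lot 2 values lie below 0.

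Secreted class 3 semaphorins lay on either side of 0. Of 7 genes 3 were higher and 4 lower, with a median of -0.0067, and 0 had an unadjusted limma p under 0.05. Sema3a, the repellent of cortical axons that acts through Nrp1, differed by -0.051 (95% interval -0.18 to 0.082). Sema3f, the ligand of Nrp2, differed by -0.0088 (95% interval -0.14 to 0.12). Sema3c, which binds both neuropilins and attracts callosal axons, had 10.36, 10.27, 10.34 and 10.34 on CKO 1, CKO 4, CKO 34 and CKO 43, against 10.50, 10.31 and 10.52 on WT 6, WT 27 and WT 38. WT 27 lay among the CKO arrays and the other WT arrays above them. The difference was -0.11 (SE 0.0577, limma adjusted p 0.73). Without WT 27 it was -0.18, with an unadjusted limma p of 0.0041, and within lot 2 it was -0.071, with an unadjusted limma p of 0.439. Sema3b differed by 0.082, Sema3g, a ligand made by endothelial cells, by 0.099, Sema3d by 0.014 and Sema3e, the ligand of Plxnd1, by -0.0067.

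Transmembrane class 4 semaphorins had 5 of 6 negative differences and a median of -0.030. Sema4c, a ligand of Plxnb2, had 10.93, 10.92, 10.91 and 10.84 on CKO 1, CKO 4, CKO 34 and CKO 43, against 10.93, 11.03 and 10.96 on WT 6, WT 27 and WT 38. Every CKO array lay below every WT array, CKO 1 by only 0.0035 below WT 6. The difference was -0.076 (SE 0.0421, limma adjusted p 0.739). Sema4f differed by -0.084 (SE 0.0423, unadjusted limma p 0.08), Sema4d, the ligand of Plxnb1, by -0.055, Sema4a by -0.0060, Sema4b by -0.0034 and Sema4g, another ligand of Plxnb2, by 0.024. A second, dimmer probe set of Sema4d gave -0.10.

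The class 5 semaphorins, membrane proteins with thrombospondin repeats, had positive differences over all 7 arrays, 0.088 for Sema5a (SE 0.0684) and 0.11 for Sema5b (SE 0.0540). Sema5b had 10.77, 10.84, 10.76 and 10.77 on CKO 1, CKO 4, CKO 34 and CKO 43, against 10.56, 10.74 and 10.74 on WT 6, WT 27 and WT 38. All CKO arrays lay above all WT arrays, by 0.0189 at the nearest, and WT 6 lay far below the rest. Without WT 6 the difference of Sema5b was 0.044, and within lot 2 it was 0.026. Within lot 2 the difference of Sema5a was -0.023, so that its sign changed. Neither gene passed the adjustment (limma adjusted p 0.784 for Sema5a and 0.73 for Sema5b).

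Class 6 semaphorins, ligands of plexin A that can also act as receptors, had 3 of 4 negative differences. Sema6a, which binds Plxna2 and Plxna4, had 11.41, 11.26, 11.21 and 11.14 on CKO 1, CKO 4, CKO 34 and CKO 43, against 11.21, 11.45 and 11.57 on WT 6, WT 27 and WT 38. The groups overlapped, as CKO 1 lay near WT 27 and WT 6 beside CKO 34. The difference was -0.15 (SE 0.0912, limma adjusted p 0.742). Within lot 2, where both CKO arrays lay below both WT arrays, it was -0.33, with an unadjusted limma p of 0.0056. Sema6b differed by -0.068, Sema6c by 0.046 and Sema6d, a ligand of Plxna1, by -0.035. The pair of probe sets of Sema6b gave identical values on every array and were counted as 1.

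Sema7a (probe set 10585778), the anchored semaphorin that promotes axon growth through integrins and binds Plxnc1, was the ligand with the largest positive difference. It had log2 signals of 10.99, 11.01, 11.07 and 11.10 on CKO 1, CKO 4, CKO 34 and CKO 43, against 10.80, 11.01 and 10.93 on WT 6, WT 27 and WT 38. WT 27 lay above CKO 1, and the other CKO arrays lay above all WT arrays. The difference was 0.13 (SE 0.0555, 95% interval 0.0033 to 0.26), or 109% of the WT signal, with an unadjusted limma p of 0.0455 and an adjusted p of 0.726. Within lot 2 it was 0.12. With 1 array left out it ran from 0.076, without WT 6, to 0.18, without WT 27, and the unadjusted limma p was under 0.05 in 2 of 7 such fits.

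**Figure D3:**
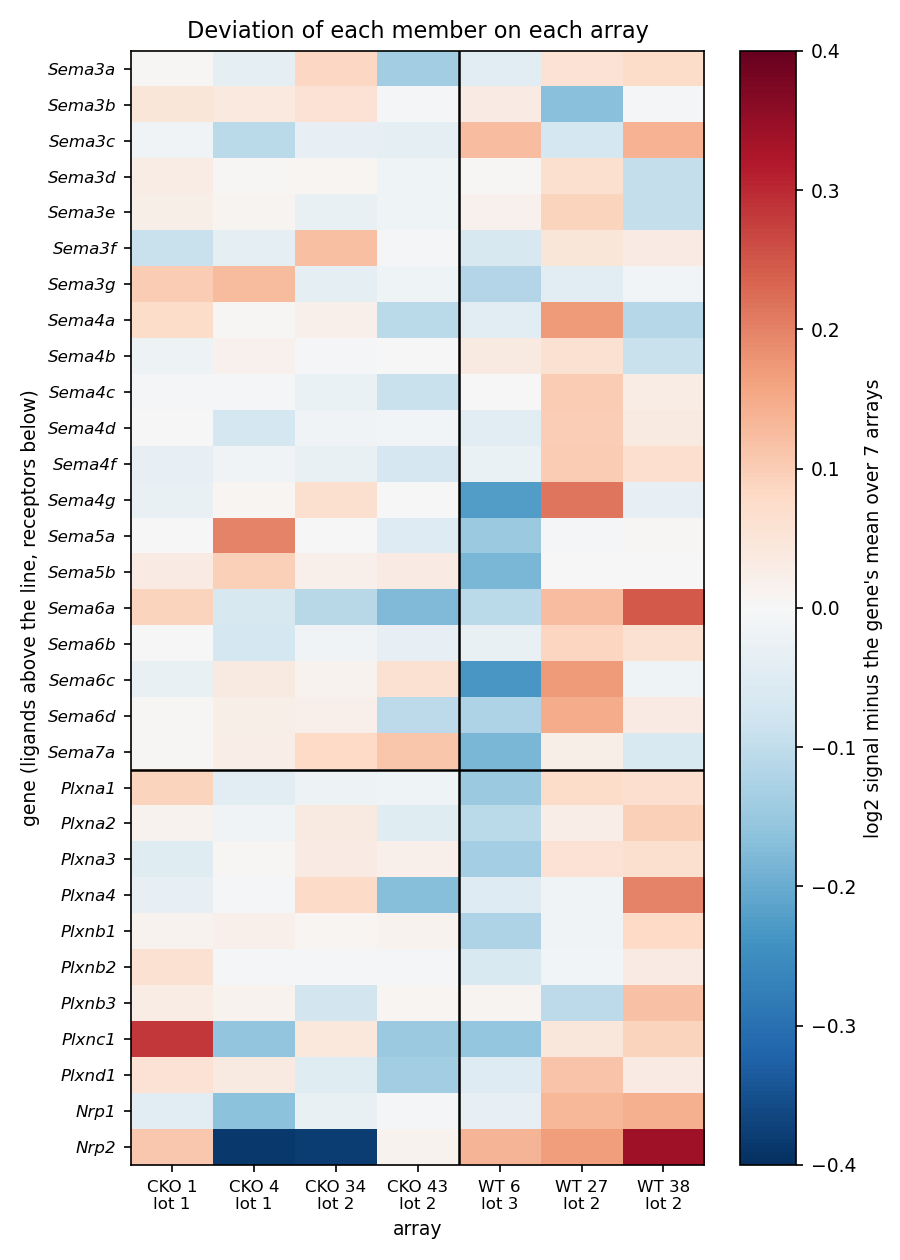
Log2 signal of each of the 31 members minus its mean over the 7 arrays, with CKO arrays left and WT arrays right of the vertical line and ligands above, receptors below the horizontal line. WT 6 is the lowest array for 12 members, and WT 27 or WT 38 the highest for 21.

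Ligands and receptors had medians close to each other. The median difference was -0.0064 over 20 ligands, of which 8 were positive, and -0.0090 over 11 receptors, of which 5 were positive. All genes tested had a median of 0.014, with 58.9% positive. The median absolute difference was 0.061 for ligands and 0.023 for receptors, beside 0.047 over all genes. The mean deviation of the ligands minus that of the receptors was -0.0388, 0.0727, 0.0424 and 0.0093 on CKO 1, CKO 4, CKO 34 and CKO 43, against -0.0020, 0.0207 and -0.104 on WT 6, WT 27 and WT 38. CKO 4 and CKO 34, with low Nrp2, lay highest and WT 38 lowest, while CKO 1 lay below WT 6 and WT 27, so the groups overlapped.

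Many members had their highest or lowest value on a WT array. For 21 of 31 members the highest array was WT 27 or WT 38, which is 67.7% against 34.5% of all genes tested. WT 6 was the lowest array for 12 members, or 38.7% against 21.7% of all genes. WT 27 and WT 38 are the WT arrays of lot 2 and WT 6 is the array of lot 3. Within lot 2 alone 25 of 31 members were lower in CKO, or all 11 receptors and 14 of 20 ligands, where 53.6% of all genes were lower. The medians there were -0.050 for ligands and -0.089 for receptors, beside -0.0056 over all genes. At an unadjusted limma p under 0.05 lot 2 gave 5 members, Nrp2, Nrp1, Plxnd1, Sema4f and Sema6a, all lower (16.1%, where 3.01% of all genes tested reached it in either direction and 1.93% as lower), and 0 passed the adjustment, as did 0% of all genes. The sign of 11 members (35.5%) differed between lot 2 and all 7 arrays, as it did for 27.9% of all genes. Lot and the choice of WT arrays cannot be told apart here, since lot 3 held 1 WT array and lot 1 no WT array. The CKO arrays of lot 2 were CKO 34 and CKO 43, and CKO 43 is the array with high Xist and low Uty. Whether this bears on the differences within lot 2 was not tested.

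**Figure D4:**
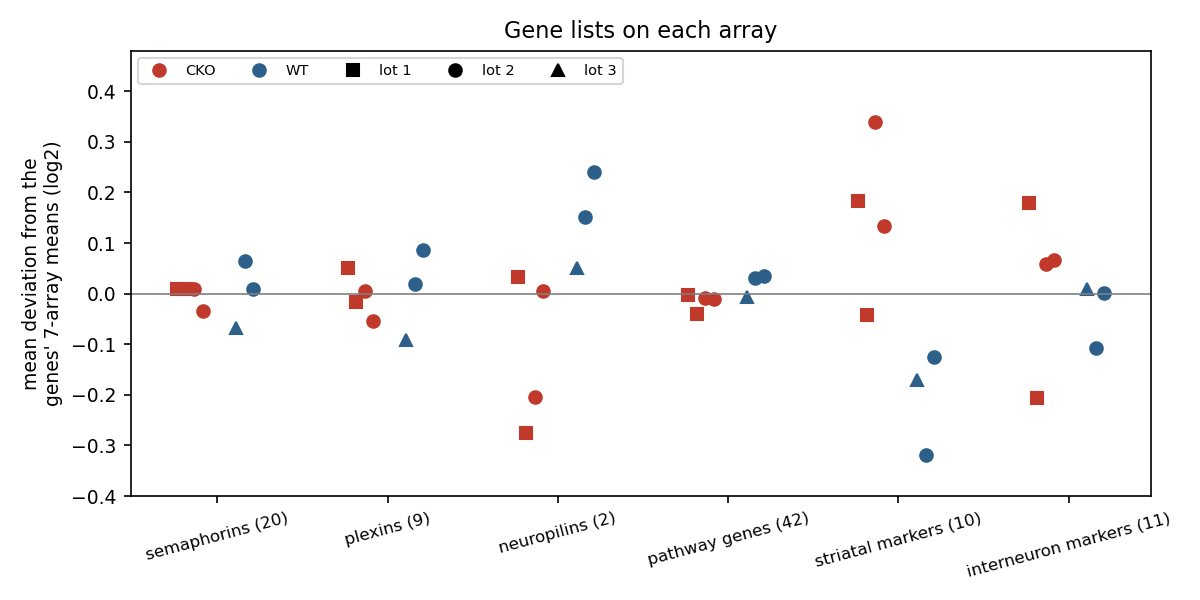
Mean deviation in log2 signal of 20 semaphorins, 9 plexins, 2 neuropilins, 42 pathway genes, 10 striatal and 11 interneuron markers on each array, CKO (red) left of WT (blue), with symbols for array lots. The neuropilins lie lowest on CKO 4 and CKO 34, and the semaphorins and plexins overlap between groups.

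Genes that act with the receptors were read from a list of 45, of which 42 were tested. With limma 0 passed the adjustment over all genes, and 3 had an unadjusted p under 0.05, all lower in CKO, which is 7.14% and close to the 6.79% of all genes. The co-receptors and other ligands, of which 4 of 9 were lower with a median of 0.016, held 2 of these. Met, the receptor of hepatocyte growth factor that associates with plexin B, had 7.16, 6.81, 6.98 and 7.24 on CKO 1, CKO 4, CKO 34 and CKO 43, against 7.64, 7.63 and 7.36 on WT 6, WT 27 and WT 38. Every CKO array lay below every WT array, and the difference was -0.50 (SE 0.112, limma adjusted p 0.613). The signal of Met was low, with a mean of 7.05 in CKO, and CKO 4 lay under the filter value of 6.84. Cntn2, the axonal adhesion protein TAG-1 of corticofugal axons, differed by -0.18 (SE 0.0563, limma adjusted p 0.711), also without overlap.

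Of the intracellular effectors, the CRMP and MICAL genes, which link plexins to microtubules and actin, had 8 of 8 negative differences, with a median of -0.047, where 58.9% of all genes had positive ones and the median over all genes was 0.014. Only Mical2 of these 8 had an unadjusted limma p under 0.05. It had 8.99, 8.88, 9.13 and 9.13 on CKO 1, CKO 4, CKO 34 and CKO 43, against 9.07, 9.41 and 9.39 on WT 6, WT 27 and WT 38. WT 6 lay among the CKO arrays, and the difference was -0.26 (SE 0.0955, limma adjusted p 0.723). The groups did not overlap for Dpysl3, a CRMP gene, with -0.071 (SE 0.0367, limma adjusted p 0.73). Of 16 GTPases and their regulators 8 were lower, with a median of 0.0046 and 0 at an unadjusted limma p under 0.05. Of 9 kinase and cytoskeleton genes 6 were lower, with a median of -0.0050. Limk2, a kinase that acts on cofilin, was the 1 of them without overlap, with -0.046 (SE 0.0345, limma adjusted p 0.78). Over the 42 pathway genes tested, 4 did not overlap between the groups, all lower, which is 9.52%. Of all genes tested 8.38% did not overlap, and 2.99% were lower without overlap.

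**Figure D5:**
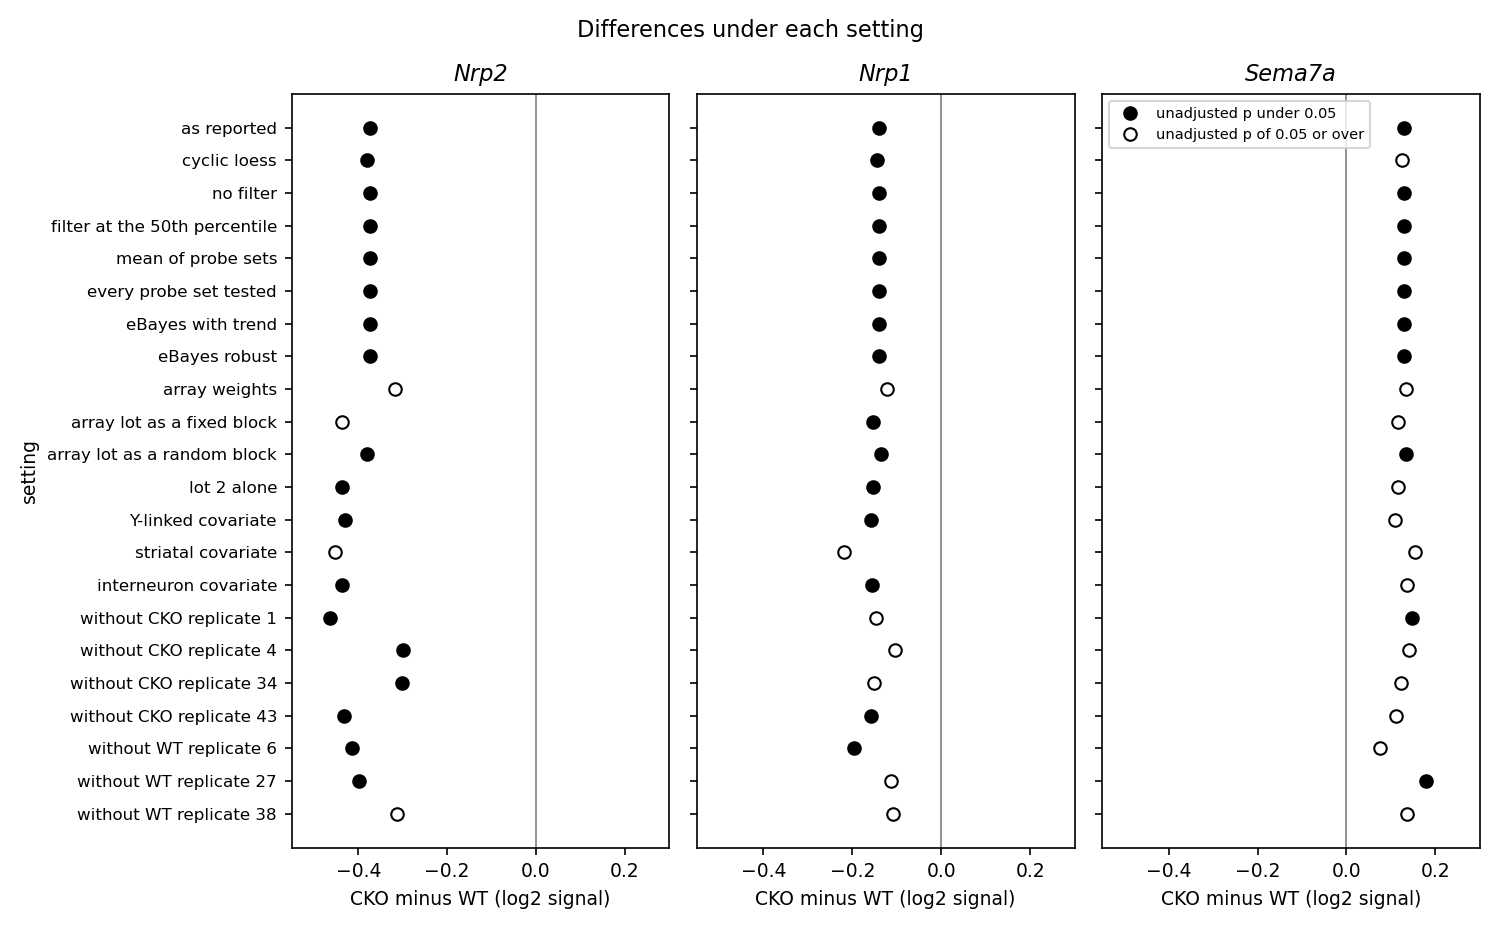
CKO minus WT difference in log2 signal of Nrp2, Nrp1 and Sema7a under the reported setting and 21 others, filled where the unadjusted limma p was under 0.05. Both neuropilins stay below 0 and Sema7a above 0 under all settings drawn.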

How the data were processed

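The log2 signals per probe set that the authors deposited came, per the submitters' processing notes, from RMA and Affymetrix Expression Console; version and genome build were not given in these sources. All 7 columns share nearly one distribution, and values of equal rank differed by at most 0.0256, so a shift common to all genes cannot be seen.

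Of 35468 probe sets, 21786 had 1 gene symbol, 1621 several and 12061 none in the platform annotation. Probe sets with 1 symbol and a mean at or above the 25th percentile (6.84) were kept, the brightest for each gene. Members matched RefSeq's mouse gene table by Entrez identifier (31 of 31). The 4 CKO and 3 WT arrays were compared with limma 3.58.1 in R 4.3.3 (lmFit and eBayes without covariates, Benjamini-Hochberg over 16144 genes at 0.05; 5 residual and 3.28 prior degrees of freedom). SE is limma's standard error, and intervals are 95% intervals. Members and lists were chosen with earlier results of these data known, so counts and medians stand beside all genes with no list test. Members with an unadjusted p under 0.05, without overlap or, in a class with neither, with the smallest p have every array's value; pathway genes were named by the same 2 criteria. On simulated data of 16144 genes the fit recovered 50.7%, 86.6% and 98.5% of genes changed by 0.3, 0.6 and 1. The changed genes numbered 67, 67 and 66, in that order. These shares hold for the simulated noise only and cannot be read as power in the measured data. There the CKO SD lay under the WT SD for 69.2% of genes tested. Nr2f1, with a measured difference of -0.36, had a limma adjusted p of 0.435. Matplotlib 3.10.9 was used for the figures. The number of arrays limits the precision.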

Additional observations from a re-analysis of the deposited data

Results flagged for a closer look

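Among 33 values tested for 1 CKO array standing apart from the other 3, 4 did so by Dixon's criterion. Its nominal rate is about 1 in 20, and the share over all genes was not computed, so the count is not compared with a background. The values are not independent, since the ligand mean is made from member values. The criterion is a ratio, so small shifts are flagged where the other 3 arrays agree closely. Sema5b was at 10.84 on CKO 4, against 10.76 to 10.77 on the other CKO arrays. Sema6d was at 11.34 on CKO 43, against 11.44 to 11.46. Plxnb2 was at 12.26 on CKO 1, against 12.19 on each of the others. The mean deviation of the 20 ligands was -0.0341 on CKO 43, against 0.0091 to 0.0097 on the others. CKO 43 is also the array with high Xist, and whether this bears on its lower ligand mean was not tested.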

How the results depend on the processing

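No member passed the adjustment under any of the 22 other settings with limma, a threshold of 0.1 included. With 1 array left out, 1 to 5 members had an unadjusted p under 0.05 (3.82% to 10.9% of all genes), 3 to 10 had groups without overlap (9.76% to 23.2% of all genes), and the medians ran from -0.050 to 0.028 for ligands and from -0.065 to 0.040 for receptors. The 5 members and the 10 came without WT 6 (6.58% and 17.8% of all genes), and the 1 member without CKO 4, CKO 34 or WT 38 (3.82%, 6.93% and 10.9%). Array weights left 0 members at an unadjusted limma p under 0.05 (4.6% of all genes). Lot as a fixed block and lot 2 alone each gave 5 members (3.78% and 3.01% of all genes) and a receptor median of -0.089; Sema4c is among the 5 only with the block (p 0.0440, against 0.0782 in lot 2) and Nrp2 only in lot 2 (p 0.0428, against 0.0762 with the block), all unadjusted limma p. In lot 2 alone 14 members did not overlap, where 30.4% of all genes did not. Covariates of striatal and interneuron signal were chosen after seeing the data. With the striatal one 1 member had an unadjusted limma p under 0.05, Sema3c with -0.26, where 10.3% of all genes had one, and the ligand median was 0.047, while Nrp2 was at -0.45 with an unadjusted limma p of 0.112. With the interneuron one Nrp2 was at -0.44 with an unadjusted limma p of 0.0039, and it did not pass the adjustment. The interneuron covariate is a mean over markers of which 7 were higher and 4 lower in CKO. The fit therefore cannot tell what part interneurons had in the difference of Nrp2. The differences of 12 of 31 members, Nrp2, Nrp1 and Sema7a among them, kept their sign under every setting that gave them a value. All settings draw on the same 7 arrays. The share of all genes that kept their sign is not given, so the count is not compared with a background. No paired analysis was possible because no replicate number is shared between the groups. Differences of the size of most members here lie near their standard errors (median 0.057), and the 7 arrays do not resolve them.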
